A study of Mus musculus with 8 samples.

Results

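The genes described here encode the protein parts of the cytosolic ribosome, measured in the striatum of 8 male mice. They were found by gene symbol: a probe set had to carry exactly 1 symbol of the Rps, Rpl or Rplp series, or Rpsa. Ribosomal S6 kinase genes, pseudogene names and l-like paralogues were left out. For each gene the probe set with the highest mean was kept, provided that its mean log2 value reached a fixed minimum, given with the processing. This gave 56 genes of 14883 named genes tested. All 56 candidate genes passed that level, so none lay just outside it, and the pair just inside were Rpl12 with a mean of 5.54 and Rplp2 with a mean of 5.63. Of the 56, 54 encode ribosomal proteins: 21 of the small subunit, 30 of the large subunit and 3 of the P stalk. The other 2 were caught by their names only. Rps19bp1 encodes a protein that binds RPS19, and Rps23rg1 is a retrogene copied from Rps23. Of 80 ribosomal protein genes listed for the mouse, 16 were represented only by probe sets with several symbols, Fau carried a name outside the rule, and 9 were not analysed here.

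A ribosome is built from a small subunit, which decodes the messenger RNA, and a large subunit, which joins amino acids into a chain and lets the chain leave through a tunnel. Each subunit is made of folded ribosomal RNA held by many small basic proteins, nearly all present in a single copy. The P proteins form a flexible stalk that recruits elongation factors. The messenger RNAs of these proteins mostly begin with a cytosine followed by a run of pyrimidines, the terminal oligopyrimidine tract. Through it the mTORC1 pathway and the RNA-binding protein LARP1 set their translation together. In neurons such messenger RNAs are also carried into axons and dendrites.

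The sequences around the annotated start of transcription are shown because the tract is the feature through which these messages are known to be controlled. Promoter windows from RefSeq, build GRCm38.p6, were found for 43 of the 54 ribosomal protein members, 50 windows in all because some genes have several starts, and 11 members had none here. Each line gives 30 bases, 15 before the annotated start and 15 from it onward, the latter in the first exon, read 5′ to 3′ on the gene's strand. Capitals mark a cytosine within 5 bases of the annotated start and the unbroken run of pyrimidines, at least 4 long, that follows it. The genes are those whose values are described below.
Rps2 (chr17:24720048-24720077, plus strand): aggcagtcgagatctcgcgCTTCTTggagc
Rps6 (chr4:86857353-86857382, minus strand): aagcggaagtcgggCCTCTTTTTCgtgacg
Rps9 (chr7:3704026-3704055, plus strand): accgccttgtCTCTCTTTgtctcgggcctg
Rps15a (chr7:118116133-118116162, minus strand): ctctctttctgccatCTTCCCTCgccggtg
Rpl34, first start (chr3:130730384-130730413, minus strand): cgccttccctgacgtaCTTCCTgtccggcg
Rpl34, other start (chr3:130730323-130730352, minus strand): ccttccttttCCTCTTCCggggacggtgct
Rpl38 (chr11:114668565-114668594, plus strand): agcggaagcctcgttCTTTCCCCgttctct
Rpl24 (chr16:55966260-55966289, plus strand): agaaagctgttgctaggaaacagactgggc
Rplp0 (chr5:115559452-115559481, plus strand): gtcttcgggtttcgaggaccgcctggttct
The lines for Rpl24 and Rplp0 have no capitals, since no such tract was found at the annotated start. The lines were picked to show the tract and hold it more often than the members do: Rps3, Rps12, Rps15, Rps19, Rpl5, Rpl9, Rpl10, Rpl22, Rpl23 and Rpl26, also described below, had none at any annotated start. Of the 50 member windows, 18 held the tract (36%, from 16 genes), against 18.3% of all 32851 promoter windows.

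Other motifs were searched on both strands over the whole window, from 250 bases before the start to 50 after it. The ETS-family motif CCGGAAG was present in 36% of the member windows and in 8.86% of all windows. For the Sp1 GC box GGGCGG the shares were 30 of 50 member windows and 35.7% of all, for the cyclic AMP response element TGACGTCA 4 of 50 and 1.79%, and for the E-box CACGTG 7 of 50 and 7.15%. The YY1 motif AAGATGGC was found in 2 of 50 and 2.75%, and the TATA box TATAAA in 5 of 50 and 13.6%. None of these letter strings contains another. The matches describe letters in a window and were not set against binding. The 250 bases before the starts of Rps2 and Rps9, both small-subunit genes, show how unlike 2 members can be in this respect. In Rps2 the capitals mark, in order, a TATA box and an ETS motif on the opposite strand and an Sp1 box. In Rps9 they mark a single cyclic AMP response element.
Rps2 (chr17:24719813-24720062, plus strand): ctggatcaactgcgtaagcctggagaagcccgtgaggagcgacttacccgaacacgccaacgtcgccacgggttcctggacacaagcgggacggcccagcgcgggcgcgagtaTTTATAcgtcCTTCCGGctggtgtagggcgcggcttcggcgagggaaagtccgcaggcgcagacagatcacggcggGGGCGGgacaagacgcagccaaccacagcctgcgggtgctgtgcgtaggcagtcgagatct
Rps9 (chr7:3703791-3704040, plus strand): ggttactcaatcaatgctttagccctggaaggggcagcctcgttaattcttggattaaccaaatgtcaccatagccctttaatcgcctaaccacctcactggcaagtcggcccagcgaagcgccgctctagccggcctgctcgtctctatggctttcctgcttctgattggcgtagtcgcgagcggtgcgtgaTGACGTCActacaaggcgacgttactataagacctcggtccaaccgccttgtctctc

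The study asked how needling changes gene expression in a mouse model of parkinsonism. All mice were C57BL/6 males aged 6 weeks. Controls received saline into the abdomen every day for 4 weeks. The other 3 groups received MPTP, a toxin that damages dopamine neurons, at 20 mg/kg every 24 h for 4 weeks. One of these groups had no needling. The acupoint group was needled on both sides at GB34, to 3 mm, and LR3, to 1 mm, in 14 sessions 48 h apart. The non-acupoint group was needled on the same schedule to 3 mm at the hips. Control and MPTP groups held 9 mice each, of which 2 per group were arrayed, each array carrying 300 ng of total RNA from the striatum of 1 mouse. Both needled groups received MPTP, so no array shows needling alone, and no MPTP lesion measure was used here.

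Values are the deposited log2 intensities, and array medians lay between 6.02 and 6.12. In bulk tissue, fewer cells of a type and less RNA per cell cannot be told apart. The striatal label was checked by its defining genes: 14 of 16 listed striatal projection neuron markers were measured, and none was at 0. Their mean was within 0.6 log2 of the control mean on 7 arrays, but non-acupoint mouse 2, at -0.599, was at that limit. The rest of these 7 lay between -0.11 and 0.35. On MPTP mouse 1 that mean was 1.98 lower. This array was also 2.04 higher than controls in 15 thalamus, septum and pallidum markers, and non-acupoint mouse 2 was 1.36 higher in them. Choroid plexus markers, of which 13 of 15 were measured, were 2.13 to 2.83 above the control mean on MPTP mouse 1, acupoint mouse 1 and both non-acupoint mice, and between -0.19 and 0.13 on MPTP mouse 2 and acupoint mouse 2. Their part in the results below was not tested.

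Across the 8 arrays the members had narrow ranges. The median range of a member, highest minus lowest array, was 0.30 log2, against 0.43 for all 16335 probe sets tested and 0.36 for 3426 other probe sets with a mean of 9 or more. The median within-group SD of the members was 0.09, against 0.14 for all probe sets. Relative to the mean of the 2 controls, the member median was 0.01 and -0.01 in the controls, -0.08 and 0.02 in the MPTP mice, -0.04 and 0.02 in the acupoint mice, and -0.10 and -0.11 in the non-acupoint mice. Both non-acupoint mice were thus lower than the other 6, although MPTP mouse 1 came within 0.03 of them. Medians over all probe sets lay between -0.03 and 0.03 on the 8 arrays. The 4 arrays with raised choroid plexus markers were the 4 with the lowest member medians.

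**Figure D1:**
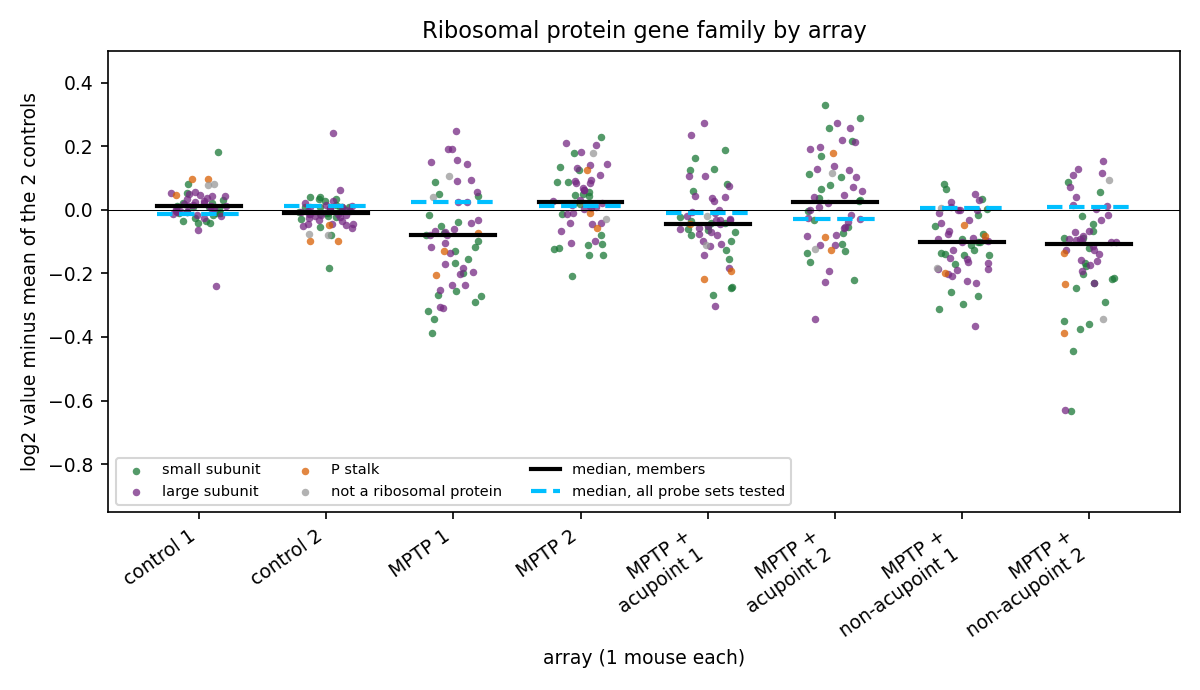
Each point is 1 of the 56 genes on 1 array (x axis, 1 mouse each), as its log2 value minus the mean of the 2 controls (y axis), coloured by subunit; black bars are member medians and dashed blue bars are medians over all probe sets tested. The black bars of both non-acupoint mice, at -0.10 and -0.11, lie lowest, with MPTP mouse 1 at -0.08.

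By subunit, the 21 genes of the small subunit had medians of -0.11 and -0.20 in the non-acupoint mice and -0.13 in MPTP mouse 1. The 30 genes of the large subunit had medians of -0.10, -0.09 and -0.07 on the same arrays, so the subunits were close on non-acupoint mouse 1. The difference between subunits was not tested. By gene, non-acupoint mouse 2 gave the lowest of the 8 values for 20 members, and non-acupoint mouse 1 and MPTP mouse 1 for 13 each. Acupoint mouse 2 gave the highest value for 20 members, MPTP mouse 2 for 10, and non-acupoint mouse 1 for none. Over all probe sets tested, these same arrays were lowest for 15.6%, 7.15% and 21.9%, and acupoint mouse 2, MPTP mouse 2 and non-acupoint mouse 1 were highest for 8.75%, 16.1% and 8.61%. The 10 members highest on MPTP mouse 2 are thus a share close to that of all probe sets.

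No member passed an adjusted p of 0.05 (limma, Benjamini-Hochberg over all probe sets tested) in any of 7 comparisons, and neither did any other probe set. The differences below are therefore given as values and counts. With 2 mice against 2, an exact permutation test cannot go below a two-sided p of 0.333, and 2 against 6 cannot go below 0.0357.

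Non-acupoint needling with MPTP against saline control gave the lowest family values. Of the 56 members, 47 had a fitted change below 0, against 48.8% of all probe sets, and the median change was -0.11, against 0.01 for all. Both non-acupoint mice were below both controls for 35 members, 62.5% of them, where 22.6% of all probe sets were; no member was above both, where 26.9% of all probe sets were. The 35 were 15 small-subunit genes, 17 large-subunit genes, Rplp0, Rplp1 and Rps23rg1. At an unadjusted p under 0.05 there were 5 lower members, against 2.3% of all probe sets, and no higher one, against 3.76%; both directions together made 6.06% of all.

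Rps2 encodes a small-subunit protein near the messenger RNA entry channel. Its values were 11.98 and 11.97 in the controls, 11.78 and 12.06 in the MPTP mice, 11.85 and 11.85 in the acupoint mice, and 11.66 and 11.60 in the non-acupoint mice. Both non-acupoint mice were lower than all 6 others. The change from control was -0.34 ± 0.12 (SE), a ratio of 0.788, with adjusted p = 0.768 in the limma fit. All 3 probe sets carrying the symbol Rps2 had a change below 0, from -0.34 to -0.26. The separation from all 6 others held only on the probe set used. On the others non-acupoint mouse 1 was above MPTP mouse 1, at 11.21 against 11.14 and at 11.64 against 11.49.

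Rps9 encodes another protein of the small-subunit body, which helps keep decoding accurate. It read 9.85 and 9.87 in controls, 9.78 and 9.88 with MPTP alone, 9.62 and 9.69 after acupoint needling, and 9.56 and 9.64 after hip needling. All 4 needled mice were below the 4 that were not needled, and the needled groups overlapped each other. The change from control was -0.26 ± 0.09 (limma, adjusted p = 0.768) in the non-acupoint group and -0.20 ± 0.09 (adjusted p = 1) in the acupoint group. Its other probe set gave -0.03 after hip needling.

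Rps19 is needed to mature the small-subunit RNA and is the gene most often mutated in Diamond-Blackfan anaemia, an inherited failure of red cell production. Its values were 7.92 and 7.56 in the controls, 7.35 and 7.53 with MPTP alone, 7.47 and 7.60 with acupoint needling, and 7.48 and 7.11 with hip needling. The controls alone differed by 0.36. The change from control was -0.44 ± 0.17 in the limma fit, adjusted p = 0.768. Over single arrays left out in turn it ranged from -0.63 to -0.26.

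Rplp0, the base of the P stalk, read 11.46 and 11.27 in controls, 11.23 and 11.35 with MPTP alone, 11.15 and 11.28 with acupoint needling, and 11.16 and 10.97 with hip needling. Only the non-acupoint mice were both below the controls. The change was -0.29 ± 0.12 (limma, adjusted p = 0.768), and its second probe set gave -0.26. Rps23rg1, the retrogene, was at 6.24 and 6.07 in controls and 5.97 and 5.81 in the non-acupoint mice, a change of -0.26 ± 0.11 (adjusted p = 0.768). The count of 5 members at an unadjusted p under 0.05 was 1 and 3 without control mouse 1 or 2, 8 without either MPTP mouse, 2 without either acupoint mouse, and 0 without non-acupoint mouse 2.

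**Figure D2:**
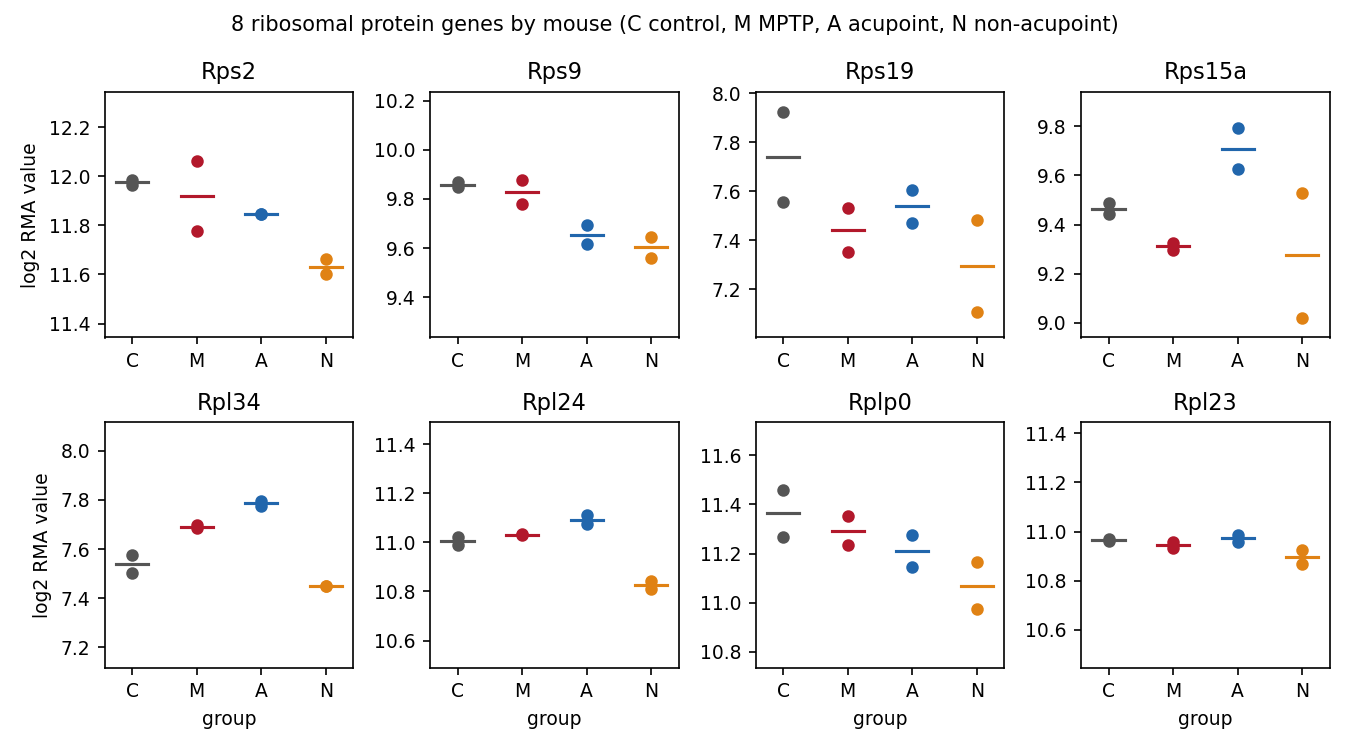
Each panel shows 1 gene: points are the log2 values of single mice (y axis, spanning 1 log2 unit in every panel) by group (x axis, 2 mice each), and bars are group means. Rps2 was lowest in both non-acupoint mice, while for Rplp0 only the group mean was lowest there. Rps9 was low in both needled groups, and Rpl34 and Rpl24 were highest in the acupoint mice and lowest in the non-acupoint mice.

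In the same arrays all 13 measured choroid plexus markers were higher in both non-acupoint mice than in both controls, with summed log2 levels of 107.4 to 116.4 against 79.33 to 80. Of 15 thalamus, septum and pallidum markers 9 were higher in both, with sums of 120.1 to 136.1 against 115.7 to 115.8. Of 14 striatal projection neuron markers 11 were lower in both, with sums of 138.2 to 145.1 against 146.5 to 146.6. Of 10 ependymal markers 8 were higher, with sums of 69.39 to 72.36 against 67.62 to 67.96. Of 10 astrocyte markers 5 were higher and 1 lower, with sums of 99.55 to 100.8 against 98.79 to 98.81. Of 11 microglia markers 6 were lower and 1 higher, with sums of 84.58 to 85 against 85.82 to 86.08, and of 7 cortical neuron markers 5 were lower and 1 higher, with sums of 54.67 to 57.83 against 59.5 to 59.83. None of these markers was at 0, and their part in the result was not tested. Leaving out non-acupoint mouse 2, the median member change was -0.10 with 44 members below 0, and leaving out non-acupoint mouse 1 it was -0.11 with 44 below 0. With arrays centred on their medians it was -0.17 with 55 below 0, where 61.7% of all probe sets were below 0.

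**Figure D3:**
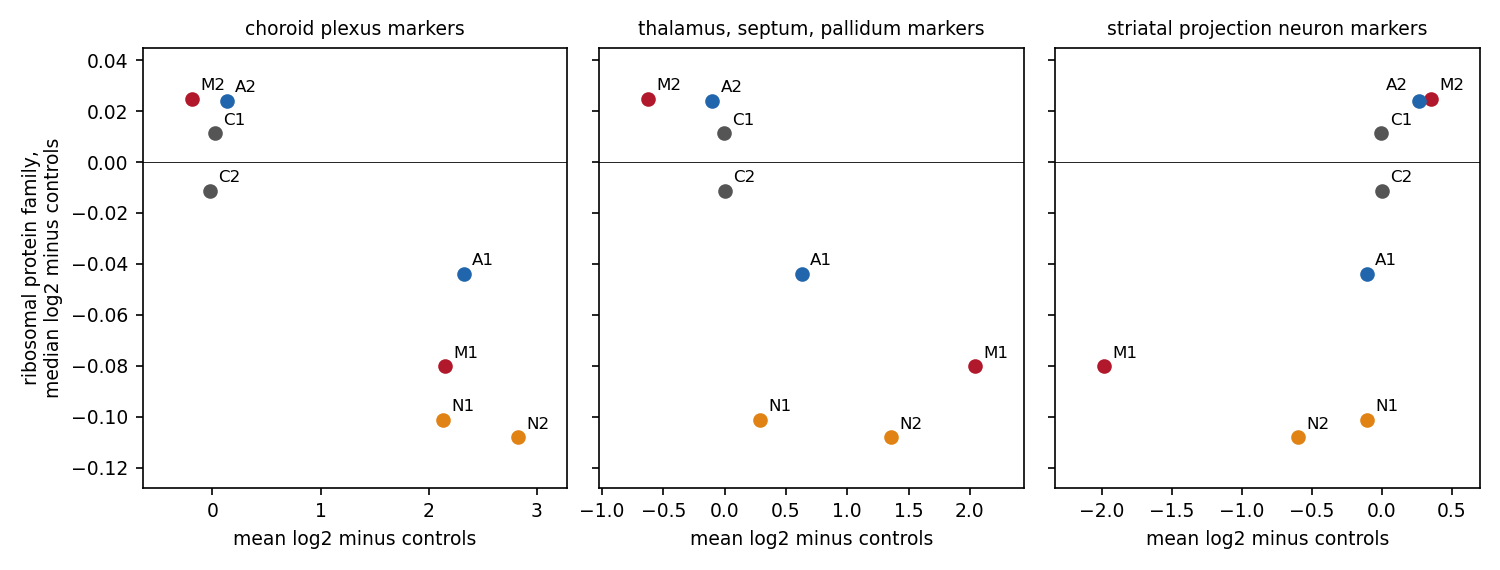
Each point is 1 array (C control, M MPTP, A acupoint, N non-acupoint, with the mouse number); the y axis is the member median and the x axis the mean of a marker list, both in log2 minus the control mean. The 4 arrays at 2.13 or more on the choroid plexus axis have the 4 lowest member medians. MPTP mouse 1 has the lowest striatal marker value, -1.98, and a member median of -0.08. These relations were not tested.

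Acupoint against non-acupoint needling, in which both groups had received MPTP, had the most members on one side of 0 among the 7 comparisons. Of the 56 members, 52 were higher with acupoint needling, and 4 lower, against 58.3% of all probe sets lower, and the median difference was 0.11, against -0.03. All 21 small-subunit genes were above 0, with a median of 0.16. In the large subunit 27 of 30 were, with a median of 0.07, and all 3 P-stalk genes were, with a median of 0.13. Both acupoint mice were above both non-acupoint mice for 29 members, 51.8% of them, where 13.9% of all probe sets were; no member was below in this way, where 24.6% of all probe sets were. At an unadjusted p under 0.05 there were 4 members, all higher, against 1.1% of all probe sets higher, 2.12% lower and 3.22% in either direction.

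Rpl34, a protein of the large subunit, had the smallest p of the members. Its values were 7.58 and 7.50 in controls, 7.70 and 7.68 with MPTP alone, 7.78 and 7.80 in the acupoint mice, and 7.45 and 7.45 in the non-acupoint mice. No group overlapped another. The difference was 0.34 ± 0.09, a ratio of 1.26, in the limma fit (adjusted p = 0.964), and leaving out single arrays gave 0.33 to 0.35. Rpl34 was measured by 1 probe set.

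Rpl24 lies at the interface of the subunits and forms a bridge between them. It read 11.02 and 10.99 in controls, 11.03 and 11.03 with MPTP, 11.11 and 11.07 with acupoint needling, and 10.84 and 10.81 with hip needling. On the probe set used, the acupoint mice were above and the non-acupoint mice below all 4 others. The difference was 0.27 ± 0.09 (limma, adjusted p = 0.964). On both other Rpl24 probe sets the non-acupoint mice were again lowest. Acupoint mouse 1 was there below MPTP mouse 2, at 9.973 against 9.995 and at 10.55 against 10.57. Rpl7, a large-subunit protein close to the 5S RNA, had values of 10.54 and 10.60 against 10.31 and 10.36, a difference of 0.23 ± 0.10 (adjusted p = 0.964). For Rpl7 the controls, at 10.48 and 10.51, lay between the needled groups. On another Rpl7 probe set the acupoint mice, at 9.60 and 9.68, overlapped the controls, at 9.51 and 9.63.

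Rps15a, a protein of the small-subunit body, gave the largest difference. Its values were 9.49 and 9.44 in controls, 9.30 and 9.32 with MPTP, 9.63 and 9.79 with acupoint needling, and 9.53 and 9.02 with hip needling. Both acupoint mice were above all 6 others, while the non-acupoint mice differed from each other by 0.51. The difference was 0.43 ± 0.17 (limma, adjusted p = 0.964), and it ranged from 0.18 to 0.69 when single arrays were left out, the lowest being without non-acupoint mouse 2. The count of 4 members at an unadjusted p under 0.05 was 2 without either control, 5 without either MPTP mouse, 3 and 2 without acupoint mouse 1 or 2, and 2 and 1 without non-acupoint mouse 1 or 2.

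**Figure D4:**
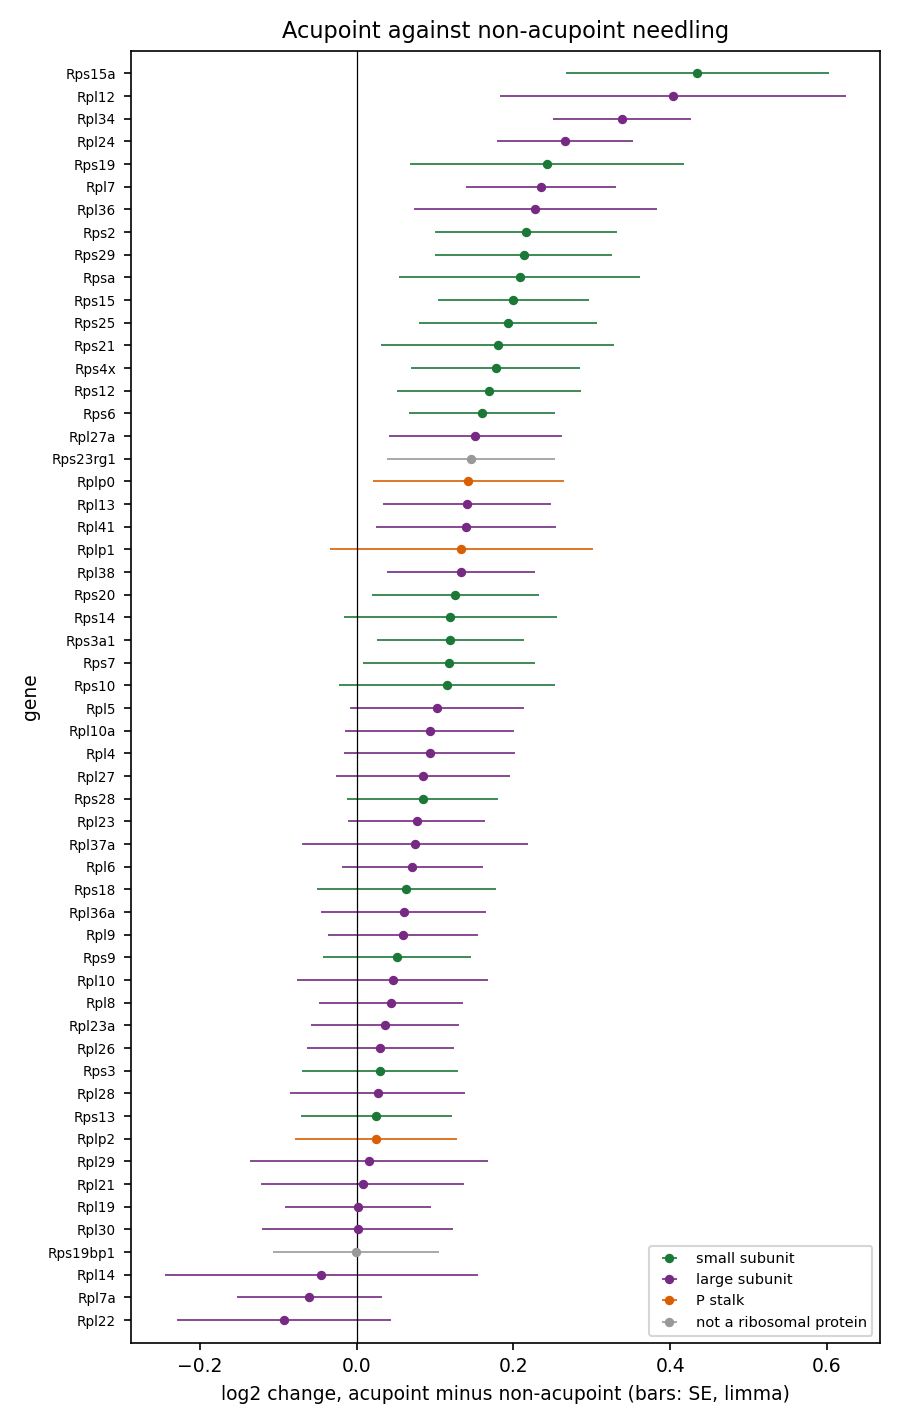
Points are the log2 difference, acupoint minus non-acupoint (x axis), for each of the 56 genes (y axis, ordered by it), with bars for 1 SE from limma and colours for the subunit. 52 points lie above 0, including all 21 of the small subunit, and the 4 below 0 are Rpl22, Rpl7a, Rpl14 and Rps19bp1.

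Leaving out acupoint mouse 2, the array with the most highest values, lowered the median difference to 0.07 with 44 of 56 members above 0. Without acupoint mouse 1 it was 0.14 with 47 above 0, without non-acupoint mouse 1 it was 0.11 with 47, and without non-acupoint mouse 2 it was 0.08 with 50. With arrays centred on their medians, the difference was 0.18 with 55 members above 0, and then 59.8% of all probe sets were above 0. The summed choroid plexus markers were 81.4 to 109.9 in the acupoint mice and 107.4 to 116.4 in the non-acupoint mice, so the groups overlapped there, and 2 of 13 markers were lower in both acupoint mice. All 13 had a fitted difference below 0, with a median of -1.16. All 15 thalamus, septum and pallidum markers were also below 0, with a median of -0.60. Their sums were 114.3 to 125.2 against 120.1 to 136.1, and 2 were lower in both acupoint mice. Of 10 ependymal markers 7 were lower in both acupoint mice, with sums of 66.53 to 69.06 against 69.39 to 72.36. Of 14 striatal projection neuron markers 7 were higher, with sums of 145.1 to 150.3 against 138.2 to 145.1, and of 11 microglia markers 5 were higher, with sums of 84.94 to 87.06 against 84.58 to 85. Of 12 endothelial and pericyte markers 4 were lower and 2 higher, with sums of 101.1 to 101.3 against 101.8 to 103.6. Acupoint mouse 1, whose choroid plexus markers were 2.32 above control, had a member median of -0.04 from control. This was above both non-acupoint mice and MPTP mouse 1, and below both controls, MPTP mouse 2 and acupoint mouse 2. The part of these marker lists in the difference was not tested.

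Hip needling against MPTP alone differed in the same direction as against control; the comparisons share the non-acupoint arrays. Here 45 of 56 members were below 0, against 51.5% of all probe sets, with a median of -0.09 against -0.01. Both non-acupoint mice were below both MPTP mice for 24 members, 42.9%, where 17.7% of all probe sets were. They were above for 2, Rps28 and Rpl26, 3.57% of the members, where 15.4% of all probe sets were. 3 members had an unadjusted p under 0.05, all lower, against 3.07% of all probe sets lower, 3.51% higher and 6.59% in either direction. In the limma fit these were Rps2 at -0.29 ± 0.12 (adjusted p = 0.742), Rps23rg1 at -0.27 ± 0.11 (adjusted p = 0.742) and Rpl34 at -0.24 ± 0.09 (adjusted p = 0.735). For Rps2 the MPTP mice, at 11.78 and 12.06, were far apart, and the change ranged from -0.43 to -0.14 over single arrays left out. Rps9 was at -0.22 ± 0.09 (adjusted p = 0.742).

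The median differed with the MPTP mouse used. Without MPTP mouse 2 it was -0.03 with 35 members below 0, and without MPTP mouse 1 it was -0.13 with 51 below 0. In the fit without MPTP mouse 2, MPTP mouse 1 was the only array of its group. The count of 3 was 1 without either control, either acupoint mouse or non-acupoint mouse 1, 0 without non-acupoint mouse 2, and 6 and 2 without MPTP mouse 1 or 2. All 10 ependymal markers were above 0 in this comparison, with a median of 0.64, and all 10 were below 0 for MPTP against control, with a median of -0.40. For hip needling against MPTP, all 13 choroid plexus markers were also above 0, with a median of 1.29. So were all 14 striatal projection neuron markers, with a median of 0.51, while 7 of 15 thalamus, septum and pallidum markers were below 0. The MPTP mice were far apart, with choroid plexus sums of 77.2 and 107.6 and striatal sums of 118.8 and 151.5. The part of these markers in these results was not tested.

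MPTP alone against saline control gave members on both sides of 0. Of the members 32 were below 0, against 45.7% of all probe sets, with a median of -0.03 against 0.01. Both MPTP mice were above both controls for 11 members, 19.6%, where 17.3% of all probe sets were. They were below for 13, 23.2%, where 12% of all probe sets were. No member had an unadjusted p under 0.05, against 3.99% of all probe sets, 2.11% higher and 1.89% lower. Of the 13 lower members 9 belonged to the small subunit, and of the 11 higher members 7 belonged to the large subunit.

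Rps29, a small zinc-binding protein of the small-subunit head, read 10.35 and 10.34 in the controls and 10.02 and 10.20 with MPTP, a change of -0.23 ± 0.11 (limma). Rps12, the member with the most probe sets, 14, read 10.28 and 10.35 against 9.97 and 10.19, a change of -0.23 ± 0.12. Rps15, near the decoding centre, read 10.88 and 10.91 against 10.63 and 10.79, a change of -0.19 ± 0.10. In each of these the groups did not overlap on the probe set used, and MPTP mouse 1 was the lower of its pair. On another Rps15 probe set MPTP mouse 2, at 9.41, was above both controls, at 9.27 and 9.23. Rps20, also of the head, was at -0.19 ± 0.11. On the higher side were Rpl34 at 0.15 ± 0.09, Rpl8, part of the centre where peptide bonds form, at 0.14 ± 0.09, Rpl28 at 0.16 ± 0.11 and Rps19bp1 at 0.14 ± 0.11. All adjusted p-values were 0.933.

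Within the MPTP group, mouse 1 was lower than mouse 2 for 46 of 56 members, including 20 of 21 small-subunit genes, where 46.9% of all probe sets were lower. The median difference between them was -0.10. Without MPTP mouse 1 the median change from control turned to 0.02, with 20 members below 0. Without MPTP mouse 2 it was -0.08, with 40 below 0. In that last fit MPTP mouse 1 was the only array of its group, which then had no spread of its own. MPTP mouse 1 is the array with low striatal and high thalamus, septum and pallidum markers, whose part in this was not tested.

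Acupoint needling against MPTP alone gave a median of 0.02, with 24 members below 0, against 59.7% of all probe sets. Both acupoint mice were above both MPTP mice for 11 members, 19.6%, where 8.42% of all probe sets were, and below for 6, 10.7%, where 18.9% were. 2 small-subunit genes had an unadjusted p under 0.05, both higher, against 1.04% of all probe sets higher, 2.56% lower and 3.6% in either direction. Rps15 read 10.96 and 10.92 after acupoint needling against 10.63 and 10.79 with MPTP alone, a difference of 0.23 ± 0.10 (limma, adjusted p = 0.902). The acupoint values were close to those of the controls. On another Rps15 probe set the acupoint mice, at 9.21 and 9.37, lay between the MPTP mice, at 8.89 and 9.41. Rps15a differed by 0.40 ± 0.17 (adjusted p = 0.902), with the values given above. Rpl27a, a protein near the peptidyl transferase centre, read 11.72 and 11.66 against 11.34 and 11.58, a difference of 0.23 ± 0.11. Rps25, used by some viral and cellular messages for internal ribosome entry, read 10.72 and 10.79 against 10.40 and 10.66, a difference of 0.22 ± 0.11. On the lower side were Rps9 at -0.17 ± 0.09, Rpl8 at -0.16 ± 0.09, Rps3 at -0.15 ± 0.10 and Rpl22 at -0.18 ± 0.14. The adjusted p was 0.902 for each of these genes.

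The sign of the median differed with the MPTP mouse used. Without MPTP mouse 1 the median was -0.03 with 36 members below 0. Without MPTP mouse 2 it was 0.07 with 15 below 0, and MPTP mouse 1 was then the only array of its group. The count of 2 at an unadjusted p under 0.05 was 0 without either control, MPTP mouse 1 or acupoint mouse 2, 5 without MPTP mouse 2, and 1 without either non-acupoint mouse.

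Against saline control, the acupoint group as a whole lay close to 0. The member median was -0.02, equal to that of all probe sets, and 31 members were below 0, against 56.1% of all probe sets. Both acupoint mice were above both controls for 8 members, 14.3%, where 12.7% of all probe sets were, and below for 15, 26.8%, where 21.2% were. Rpl34 was the only member with an unadjusted p under 0.05, where 0.618% of all probe sets were higher, 1.3% lower and 1.92% either, at 0.25 ± 0.09 (limma, adjusted p = 1). Next on the higher side were Rps25 at 0.22 ± 0.11 and Rpl38, which affects the translation of Hox messages in the embryo, at 0.15 ± 0.09. On the lower side, after Rps9, were Rps3 at -0.14 ± 0.10 and Rpl9 at -0.13 ± 0.10. The median was 0.02 without acupoint mouse 1, -0.04 without acupoint mouse 2 and 0.002 without control mouse 1. The single call at an unadjusted p became 2 without either MPTP mouse and 0 without either control or either acupoint mouse.

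With all 6 MPTP-treated mice set against the 2 controls, 40 members were below 0, against 50.1% of all probe sets, and the median was -0.05. All 6 mice were below both controls for 4 members, 7.14%, where 3.55% of all probe sets were, and above for none, where 3.72% were. The 4 were Rpl9, Rpl23a, Rps20 and Rps7. Rpl9 read 12.49 and 12.47 in the controls and 12.26 to 12.41 in the others, a change of -0.16 ± 0.08 (limma). Rps20 read 10.46 and 10.48 against 10.18 to 10.39, a change of -0.17 ± 0.09. Rpl23a, which docks the signal recognition particle at the tunnel exit, read 11.25 and 11.26 against 11.05 to 11.16, a change of -0.14 ± 0.08. The adjusted p was 0.979 for each. At an unadjusted p under 0.05 there was no member, against 3.39% of all probe sets, and 4 without MPTP mouse 2 and 1 without control mouse 2 or non-acupoint mouse 1. Without MPTP mouse 2, MPTP mouse 1 alone stood for the group given MPTP without needling. The 3 treated groups share the 2 controls, so a low value in each is not an independent repeat.

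**Figure D5:**
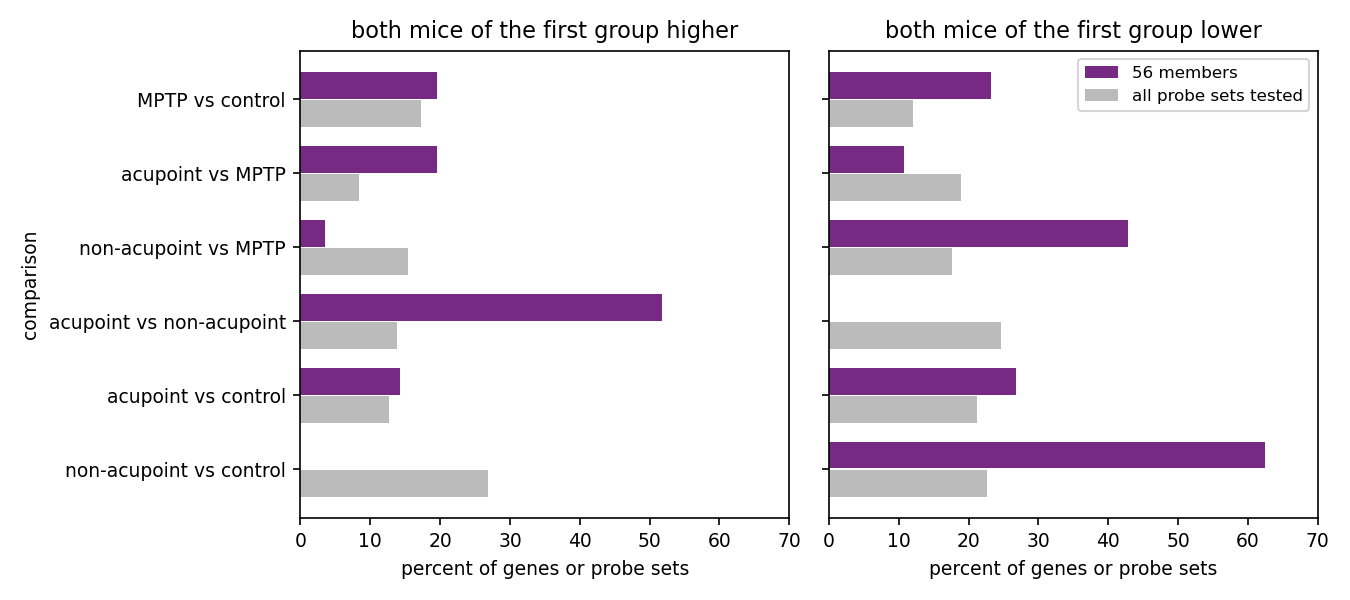
Bars give the percent of the 56 members and of all probe sets tested (x axis) for which both mice of the first group were above (left) or both below (right) both mice of the second group, for 6 comparisons (y axis). The longest member bars are 62.5% lower for non-acupoint against control, where all probe sets are at 22.6%, and 51.8% higher for acupoint against non-acupoint, where all are at 13.9%.

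Members with known roles outside translation or in its control were examined next. Rps6, the target of S6 kinase, read 12.38 and 12.46 in controls, 12.46 and 12.48 with MPTP, 12.55 and 12.46 with acupoint needling, and 12.31 and 12.38 with hip needling. Both non-acupoint mice were below all the other mice, though non-acupoint mouse 2, at 12.376, was close to control mouse 1, at 12.381. The needled groups differed by 0.16 ± 0.09 (limma, adjusted p = 0.964). On another Rps6 probe set non-acupoint mouse 2, at 11.72, was above control mouse 1 and MPTP mouse 1, at 11.63 and 11.70. Rpsa, which is also a laminin receptor, read 10.60 and 10.50, 10.53 and 10.60, 10.31 and 10.72, and 10.41 and 10.20 in the same order, and the acupoint mice spanned all 4 unneedled values. Rps3, which also has a part in DNA repair, read 10.14 and 10.12, 10.09 and 10.18, 10.07 and 9.91, and 9.99 and 9.93, so all 4 needled mice were below all 4 others.

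Rpl5, which with the 5S RNA can bind Mdm2 and so stabilise p53, read 11.17 and 11.21 in controls, 10.96 and 11.21 with MPTP, 11.14 and 11.11 with acupoint needling, and 11.01 and 11.04 with hip needling. MPTP mouse 1 was lowest. Rpl23, another protein that binds Mdm2, read 10.97 and 10.96, 10.93 and 10.96, 10.96 and 10.99, and 10.92 and 10.87. Its range of 0.119 was the smallest in the family, yet the acupoint mice were above and the non-acupoint mice below the MPTP mice, with a difference of 0.08 ± 0.09 (limma, adjusted p = 0.964). On the other Rpl23 probe set the non-acupoint mice, at 8.04 and 7.98, overlapped the MPTP mice, at 7.95 and 8.06. Rpl26, which can bind the p53 message, stayed between 8.00 and 8.17. Rps14, which can hold back Myc and Mdm2, read 10.95 and 10.79 in controls and 10.79 and 11.10 with MPTP, and these overlapped.

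Rpl10, which joins the large subunit last and is mutated in some families with autism, read 12.52 and 12.53, 12.36 and 12.61, 12.49 and 12.50, and 12.55 and 12.35. The MPTP pair and the non-acupoint pair each spanned the controls. Rpl22, a protein with roles in T cell development, was 1 of the 3 large-subunit genes below 0 in the contrast of the needled groups, at -0.09 ± 0.14 (limma, adjusted p = 0.964). Rplp1 read 12.31 and 12.22 in controls, 12.06 and 12.39 with MPTP, 12.07 and 12.45 with acupoint needling, and 12.22 and 12.03 with hip needling. The acupoint mice differed by 0.37 in Rplp1, and the MPTP and acupoint pairs each spanned both controls. Rplp2, close to the minimum mean level used, stayed between 5.56 and 5.79.

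The widest ranges belonged to Rpl12, Rps19, Rps15a and Rpl14. Rpl12, which binds near the stalk base, was the dimmest member and ran from 5.06 in non-acupoint mouse 2 to 5.93 in control mouse 2, and the controls alone were at 5.45 and 5.93. Rpl14 ran from 6.93 in acupoint mouse 2 to 7.55 in acupoint mouse 1, so its whole range lay within 1 group. After Rpl23, the narrowest were Rpl7a, Rps13 and Rpl19, with ranges of 0.122, 0.13 and 0.145. None of these 3 had non-overlapping needled groups.

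Many members have processed copies elsewhere in the genome, and 38 of the 56 carried several probe sets, 18 only 1. For 30 of those 38, every probe set of the gene had the same sign of change between the non-acupoint group and the controls. In the other 8, among them Rpl7a, Rps25 and Rpl28, the changes of the probe sets ran from below to above 0. The 3 probe sets of Rpl41 held identical values, and of the 14 of Rps12, 5 were identical to each other and 3 others to each other. Such probe sets cannot be told apart as measures of the gene and its copies. Averaging all probe sets of a gene gave a median of 0.11 with 52 members above 0 between the needled groups, and -0.11 with 47 below 0 between hip needling and control.

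Genes that work with the ribosome had medians between -0.03 and 0.09 after hip needling, compared with -0.11 for the members. Of 22 other genes with terminal oligopyrimidine messages 18 were measured, and the median change from control was -0.03, with 10 below 0. Initiation factors, 31 of 36 measured, had a median of -0.02 and 18 below 0. Elongation and termination factors, 12 of 13 measured, had a median of 0.09 and 4 below 0. Ribosome biogenesis factors, 38 of 40 measured, had a median of 0.02 and 17 below 0. RNA polymerase I genes, all 12 measured, had a median of 0.04, and mTORC1 and S6 kinase pathway genes, 16 of 19 measured, had a median of -0.002. No gene of these lists had an adjusted p under 0.05 in any comparison, and differences between lists were not tested.

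In the contrast of the needled groups the medians of these lists were 0.01 for the other oligopyrimidine genes, -0.03 for initiation, -0.01 for elongation, -0.01 for biogenesis, -0.06 for RNA polymerase I and -0.01 for mTORC1. The ribosomal protein median was 0.11. At an unadjusted p under 0.05, no gene of these lists was higher or lower in that contrast. Genes of smallest p in their list in other comparisons included Gar1, a box H/ACA particle protein, at 8.69 and 8.61 in controls against 8.16 and 8.37 with MPTP alone, a change of -0.39 ± 0.10 (limma, adjusted p = 0.933). Mrto4, which helps assemble the P stalk, was at 8.26 and 8.25 in the controls and 7.51 to 8.10 in the treated mice, a change of -0.48 ± 0.15 (adjusted p = 0.979). Rptor, the scaffold of mTORC1, was at 8.24 and 8.27 in controls and 8.57 and 8.52 in the non-acupoint mice, a change of 0.29 ± 0.09 (adjusted p = 0.768). In all these the groups did not overlap.

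Paralogues outside the family were measured for 4 of 11 listed genes, and 3 of the 4 were below 0 between the needled groups, with a median of -0.06. Those were Rps27l at -0.10, Rps4l at -0.07 and Rpl7l1 at -0.05. Rpl10l, a testis-enriched copy of Rpl10, was at 5.53 and 6.14 in the acupoint mice against 5.34 and 5.15 in the non-acupoint mice, a difference of 0.59 ± 0.22 (limma, adjusted p = 0.964). Fau, which encodes the small-subunit protein RPS30 and lies outside the rule by its name, was at 10.56 and 10.46 in controls, 10.82 and 11.03 with MPTP, 10.51 and 11.18 with acupoint needling, and 10.60 and 10.90 with hip needling. Both MPTP mice and both non-acupoint mice were above both controls for Fau, with changes of 0.41 ± 0.23 and 0.24 ± 0.23 (limma, adjusted p = 0.933 and 0.833), so after hip needling Fau lay on the other side of 0 from most members. Of 23 genes linked to Diamond-Blackfan anaemia 12 were measured, all of them members; 11 were below control after hip needling, with a median of -0.18, where 47 of the 56 members and 48.8% of all probe sets were below 0. Of 9 listed proteins around the tunnel exit 5 were measured, with a median of -0.04, and 3 of the 5 were below 0.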

How the data were processed

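RNA from 1 mouse per array was hybridised to Affymetrix gene arrays. The deposited values are log2 intensities, made with RMA in Affymetrix Expression Console per the submitters' processing notes; RMA forces arrays to a common distribution, so a change shared by most genes cannot be seen. The array's genome build was not given in the sources used here. Of 35557 probe sets 21789 carried 1 gene symbol, 1621 several and 12147 none; 21698 symbols matched RefSeq. Probe sets with 1 symbol and a mean of 5.25 or more, 16335 in all, were fitted in limma 3.58.1 (R 4.3.3) with 4 groups in 1 model, 4 residual and 2.94 prior degrees of freedom and Benjamini-Hochberg adjustment over all of them. The code was tested on simulated data. The labels number the mice of each group as separate animals, so p-values measure the spread between mice; 2 arrays per group limit the precision. The members and lists were chosen with earlier results of these data known. Genes named are, per comparison, those with the smallest p among members whose groups do not overlap, members fixed by role, and those of widest and narrowest range. Other genes named, such as those with an unadjusted p under 0.05, Rps7, Rpl7a and Fau, were chosen after their values were seen. Alternatives were the filter, scaling, probe set choice, shrinkage, array weights, a block and leaving arrays out.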

Additional observations from a re-analysis of the deposited data

Results flagged for a closer look

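For 5 members the needled groups lay on opposite sides of a shared reference group, both mice of each. Set against MPTP alone these were Rpl23, with an acupoint minus non-acupoint difference of 0.077, Rpl24 with 0.27 and Rpl34 with 0.34. Set against saline control they were Rpl24 and Rpl34, with the same differences, Rpl7 with 0.23 and Rps15 with 0.20. The 3 members set against MPTP were 5.36% of the members, where 1.27% of all probe sets lay on opposite sides, 0.459% with the acupoint mice above. The 4 set against control were 7.14%, where 2.38% of all probe sets did, 0.673% with the acupoint mice above. The difference itself was tested in the limma fit, and none passed: the adjusted p was 0.964 for each. These values come from the probe set of highest mean per gene, and Rpl34 had only 1 probe set. The other Rpl23 probe set lost the pattern, as did both other Rpl24 ones against MPTP and both other Rps15 ones against control. For Rpl7 and Rpl24 against control, some of the other probe sets kept it and others did not.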

How the results depend on the processing

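No member had an adjusted p under 0.05 under any alternative run. The median member change kept its direction in all 7 comparisons under the filters, scalings, probe set rules and variance settings tried. The within-group SD of the member median itself was 0.0477. Centring arrays on their medians moved the median change by more than this, to 0.18 for acupoint against non-acupoint and to -0.17 for non-acupoint against control. Over all alternatives, members at an unadjusted p under 0.05 numbered 1 to 7 (4 as reported) for acupoint against non-acupoint, 0 to 10 (5) for non-acupoint against control, 0 to 7 (3) for non-acupoint against MPTP and 0 to 5 (2) for acupoint against MPTP. The highest of the first 3 came with centring, and for non-acupoint against control also with array weights. With array weights the last 2 were 0, as was non-acupoint against MPTP with only the groups compared, and acupoint against MPTP with the replicate block or with unnamed probe sets included. Single arrays left out gave medians from -0.080 to 0.025 for MPTP against control, -0.033 to 0.069 for acupoint against MPTP, -0.13 to -0.032 for non-acupoint against MPTP, 0.07 to 0.14 for acupoint against non-acupoint, -0.04 to 0.02 for acupoint against control, -0.13 to -0.09 for non-acupoint against control and -0.08 to -0.03 for all treated mice. Without MPTP mouse 1 and non-acupoint mouse 2 together, chosen after seeing the data, MPTP against control was 0.025 and acupoint against MPTP -0.033. The cause was not tested. With the mouse number as a replicate block the medians were -0.03, 0.02, -0.09, 0.11, -0.02, -0.11 and -0.05, as without it, and members called numbered 0. Deviations of same-numbered mice from their group means had correlations from -0.49 to 0.40 between groups, with no common sign. Marker content also differed between mice of a group, so these correlations cannot settle whether the numbers pair the mice.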
